A study of Homo sapiens with 4 samples.

Results

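The anaphase-promoting complex, or cyclosome (APC/C), and the proteins that start, stop and receive its activity were described in A549 cells, a human lung adenocarcinoma line of epithelial type, after knockdown of the long noncoding RNA USP2-AS1. The members were the rows of the deposited expression table named CDC20, FZR1, UBE2C, UBE2S, FBXO5, PTTG1, ANAPC1, ANAPC7, CDC27 and ESPL1. All 10 names were found, among 6828 genes in the table. The 3 core subunits (ANAPC1, ANAPC7 and CDC27) were set against the other 7 members, which are activators, ubiquitin-conjugating enzymes, an inhibitor, securin and separase.

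Poly-A RNA was sequenced in 2 groups of 2 libraries. The shctrl cells carried a lentiviral PLKO.1 vector with a control hairpin, and the shUSP2-AS1 cells the same vector with a hairpin against USP2-AS1. Per the study's methods, infected cells were selected with puromycin, RNA was collected 72 h after infection and the 2 libraries of a group were biological replicates. Which of the study's hairpins was sequenced is not given in the sources used here, and a second hairpin or uninfected cells were not analysed here. USP2-AS1 itself was listed at normalized counts of 23.2 and 24.2 in shctrl and 2.10 and 6.16 in shUSP2-AS1, from 24, 22, 2 and 7 reads. Its log2 fold change was -2.39 (SE 0.56, limma adjusted p = 0.000597), a 5.73-fold lower mean on few reads. Listed genes held 10772788 to 14120472 reads per library. A normalized count is a read count divided by the size factor of its library, and 1 read was worth 0.88 to 1.10 of that unit. Of the keratins and adhesion genes checked as epithelial markers, 4 of 6 were listed (KRT7, KRT8, KRT18 and KRT19), with summed normalized counts of 179244 and 168132 in shctrl and 106336 and 112823 in shUSP2-AS1. They did not move one way: KRT18 fell (log2 fold change -1.05), KRT7 and KRT8 were at -0.49 and -0.77 and not called, and KRT19 was at 0.75, not called, with 3699 and 3254 in shctrl and 5689 and 5952 in shUSP2-AS1. None of 4 immune or 3 endothelial markers was listed, and of 4 fibroblast markers COL1A1 was, at 260.9 and 293.4 in shctrl and 530.0 and 618.1 in shUSP2-AS1. Only genes that passed the authors' own test of the contrast were listed. A marker that was not listed could therefore still be expressed, and its absence says nothing about cell type.

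The APC/C is a large E3 ubiquitin ligase that marks proteins for destruction by the proteasome and so drives cells out of mitosis. Its core is a scaffold of many subunits that is inactive until a coactivator brings substrates to it, CDC20 in mitosis and FZR1 (also called CDH1) from late mitosis through G1. UBE2C places the initial ubiquitin on a substrate and UBE2S extends the chain, while FBXO5 (EMI1) and the spindle checkpoint hold the ligase back. The best known mitotic substrate is securin, encoded by PTTG1, which restrains separase, the ESPL1 protease that opens the cohesin rings at anaphase. Many APC/C regulators and substrates are themselves transcribed mainly in S phase, G2 and mitosis, and promoters of such genes often carry a CCAAT box and a cell cycle homology region (CHR).

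Promoter windows from RefSeq (GRCh38.p14, 250 bases before to 50 after the gene start) were searched on both strands for the CHR, spelled TTTGAA or with a central C as TTCGAA, for the CCAAT box and for 4 spellings of the E2F site, which were TTTCCCGC, TTTCGCGC, TTTGCCGC and TTTGGCGC. Of 35116 windows, 16.4% held CHR letters, 34.6% CCAAT, 6.38% both and 3.31% an E2F spelling. A window was found for 9 of the 10 members, all but UBE2C. CHR letters stood in 5 of the 9 (CDC20, FZR1, ESPL1, ANAPC1 and ANAPC7), CCAAT in 5 (CDC20, UBE2S, PTTG1, ESPL1 and CDC27), and an E2F spelling in 0. Both motifs stood together only in CDC20 and ESPL1 among these 9. The windows of the 2 coactivators and of separase and securin are shown 5′ to 3′ on the gene's strand, with motif letters in capitals, since these are pairs of partner genes whose transcripts are compared below. The CDC20 window is chr1:43358731-43359030 (+), that of FZR1 chr19:3506061-3506360 (+), that of ESPL1 chr12:53268049-53268348 (+) and that of PTTG1 chr5:160421605-160421904 (+).
CDC20: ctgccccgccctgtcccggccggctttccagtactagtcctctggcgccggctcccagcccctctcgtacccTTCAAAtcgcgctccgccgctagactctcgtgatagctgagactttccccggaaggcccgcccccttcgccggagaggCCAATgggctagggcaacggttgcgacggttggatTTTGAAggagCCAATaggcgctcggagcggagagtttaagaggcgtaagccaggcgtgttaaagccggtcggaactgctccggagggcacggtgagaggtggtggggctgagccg
FZR1: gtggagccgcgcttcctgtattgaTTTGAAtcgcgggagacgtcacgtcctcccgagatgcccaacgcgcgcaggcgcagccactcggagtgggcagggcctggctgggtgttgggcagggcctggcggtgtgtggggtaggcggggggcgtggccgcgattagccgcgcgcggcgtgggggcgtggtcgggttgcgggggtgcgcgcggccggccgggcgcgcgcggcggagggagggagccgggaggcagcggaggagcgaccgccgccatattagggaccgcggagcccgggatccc
ESPL1: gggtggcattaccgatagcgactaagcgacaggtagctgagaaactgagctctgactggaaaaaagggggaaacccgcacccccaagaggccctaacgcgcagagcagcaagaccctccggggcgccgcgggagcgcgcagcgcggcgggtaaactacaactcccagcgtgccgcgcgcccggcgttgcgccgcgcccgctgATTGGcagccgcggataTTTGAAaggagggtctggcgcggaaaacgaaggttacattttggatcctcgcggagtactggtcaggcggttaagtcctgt
PTTG1: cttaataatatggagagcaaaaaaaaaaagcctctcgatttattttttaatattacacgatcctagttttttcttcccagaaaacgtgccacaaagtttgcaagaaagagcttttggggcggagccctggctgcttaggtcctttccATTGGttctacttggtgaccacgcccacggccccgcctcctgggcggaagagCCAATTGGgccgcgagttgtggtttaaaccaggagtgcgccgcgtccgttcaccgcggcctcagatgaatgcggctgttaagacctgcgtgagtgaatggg
In CDC20, CHR letters begin at -178 (on the minus strand, printed TTCAAA) and -65, and CCAAT at -100 and -55, counted from the gene start. In ESPL1, CCAAT begins at -48 (minus strand, printed ATTGG) and CHR at -31. PTTG1 has CCAAT at -51 and, on the minus strand, at -103 and -48, and the matches at -51 and -48 overlap. FZR1 has CHR letters at -226 and no CCAAT. Its RefSeq start lies 38 bases from the start of the gene in the table. That distance is 22 bases for ANAPC7, 127 for CDC27 and 497 for ANAPC1. The ANAPC1 window therefore does not cover the start of the gene as listed. A match says only that the letters stand in the window.

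Most members outside the core fell at least 2-fold, and the core subunits among the members did not reach the threshold of a call. Of the 10 members, 6 were called lower in shUSP2-AS1 cells, against 13.5% of all tested genes. Calls were made by limma on log2(value + 1), at a Benjamini-Hochberg adjusted p below 0.05 over 6812 genes and a change of at least 2-fold. None of the 10 was called higher, against 16.1% of all tested genes. The 6 were CDC20, UBE2C, UBE2S, FBXO5, PTTG1 and ESPL1, whereas FZR1 and the 3 core subunits did not reach the fold threshold. The 3 core subunits had a median log2 fold change of -0.63 (range -0.80 to -0.62) and the other 7 members one of -2.20 (range -2.87 to -0.34), beside a median of 0.19 over all tested genes. The table lists only genes that passed the authors' own test of the same contrast, so small adjusted p-values were a condition of being listed. Members and gene lists were also chosen with earlier results of these data known. Their shares of calls, here and below, are therefore descriptive beside those of all tested genes. Lower values at an adjusted p below 0.05 and any fold were found for all 10 members and for 49.4% of tested genes, and 100% of tested genes to 3 digits (6811 of 6812) had groups that did not overlap. In RNA from whole cultures, fewer cells in a cell cycle phase and less of a transcript per cell cannot be told apart.

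**Figure D1:**
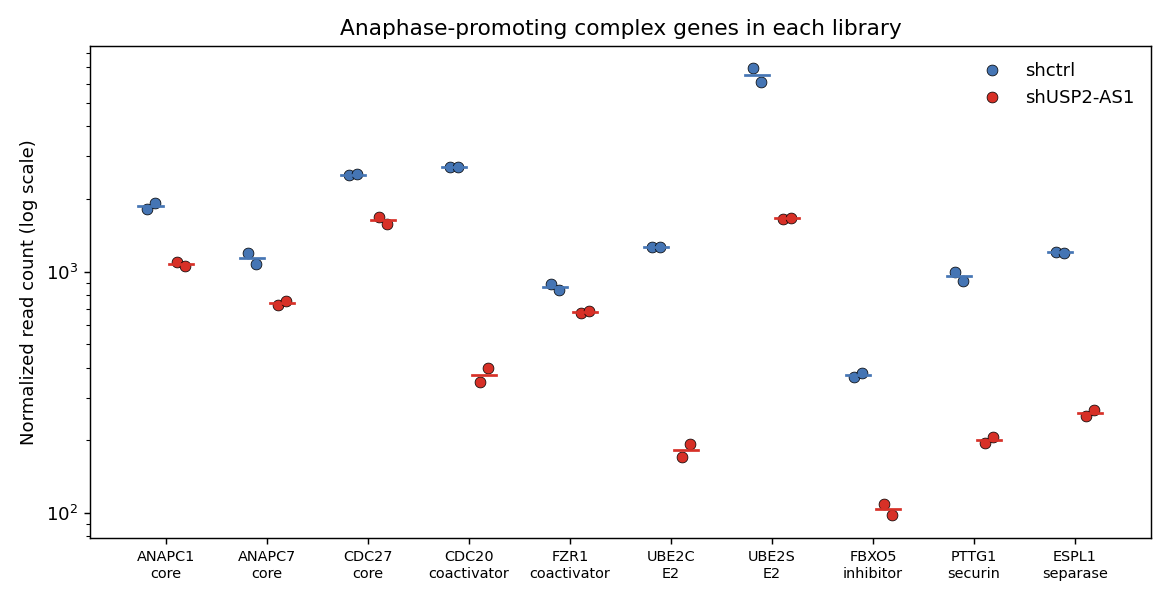
Normalized read count (log scale) of the 10 members in each library, with shctrl in blue, shUSP2-AS1 in red and a line at each group mean of 2 libraries. The gap between groups is widest for CDC20 and UBE2C and narrowest for FZR1.

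The 2 coactivators differed in the size of their change. CDC20 (chr1:43358981-43363203, + strand), which activates the complex in mitosis, stood at 2717 and 2711 in shctrl, against 348.1 and 397.1 in shUSP2-AS1. Its mean fell from 2714 ± 4.24 to 372.6 ± 34.7 (SD, n = 2), with 13.7% left. The log2 fold change was -2.87 (SE 0.07, limma adjusted p = 2.17e-15), which ranked 28 from the lowest of 6812 tested genes. FZR1 (chr19:3506273-3538330, + strand), the coactivator of late mitosis and G1, stood at 889.9 and 835.2 in shctrl and 672.0 and 686.7 in shUSP2-AS1. The groups did not overlap, but 78.8% was left and the log2 fold change of -0.34 (SE 0.07, limma adjusted p = 0.000287) was below the 2-fold threshold. Per kilobase of gene length, CDC20 exceeded FZR1 by 9.88 and 10.5 times in shctrl but by 1.68 and 1.87 times in shUSP2-AS1. The ratio of mitotic to G1 coactivator transcript was thus 5.75-fold lower in the mean. The deposited gene length need not be that of the transcript made in these cells. It affects the size of such a ratio but not its change between the groups. With 2 libraries a group, an exact two-sided permutation test of a ratio cannot go below p = 0.333, so the ratios are given by library and without a test.

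Both ubiquitin-conjugating enzymes among the members fell. UBE2C (chr20:45812576-45816957, + strand), which starts ubiquitin chains, stood at 1264 and 1266 in shctrl and 170.4 and 193.7 in shUSP2-AS1. Its log2 fold change was -2.79 (SE 0.09, limma adjusted p = 3.1e-14), with 14.4% left. The ratio of CDC20 to UBE2C per kilobase was 1.37 in each shctrl library and 1.31 in each shUSP2-AS1 library, so the coactivator and the initiating enzyme were lowered by nearly the same factor. UBE2S (chr19:55399745-55407788, − strand), which lengthens the chains, stood at 6946 and 6121 in shctrl and 1652 and 1665 in shUSP2-AS1. Its mean fell 3.94-fold, a log2 fold change of -1.97 (SE 0.06, limma adjusted p = 1.06e-14). The chain-extending enzyme was therefore lowered less than the initiating one, and UBE2S exceeded UBE2C per kilobase by 2.53 and 2.22 times in shctrl and by 4.46 and 3.95 times in shUSP2-AS1. UBE2S overlaps RPL28 on the opposite strand and has 2 processed pseudogenes in the table, UBE2SP1 and UBE2SP2, with log2 fold changes of 0.26, -1.67 and -1.35. The strand setting of the counting is not given in the sources used here, so the reads of these loci are not fully separable. UBE2D1, a general conjugating enzyme that can also start chains on the complex, stood at 401.0 and 337.4 in shctrl and 498.4 and 501.8 in shUSP2-AS1, with a log2 fold change of 0.44 (SE 0.10, limma adjusted p = 0.000426) that was below the threshold. UBE2C exceeded UBE2D1 per kilobase by 8.53 and 10.2 times in shctrl, while the ratios in shUSP2-AS1 were 0.925 and 1.04. In the knockdown libraries the 2 initiating enzymes were thus at similar levels per kilobase of the deposited gene length. Whether their transcripts were equally abundant depends on the lengths made, which were not examined here.

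**Figure D2:**
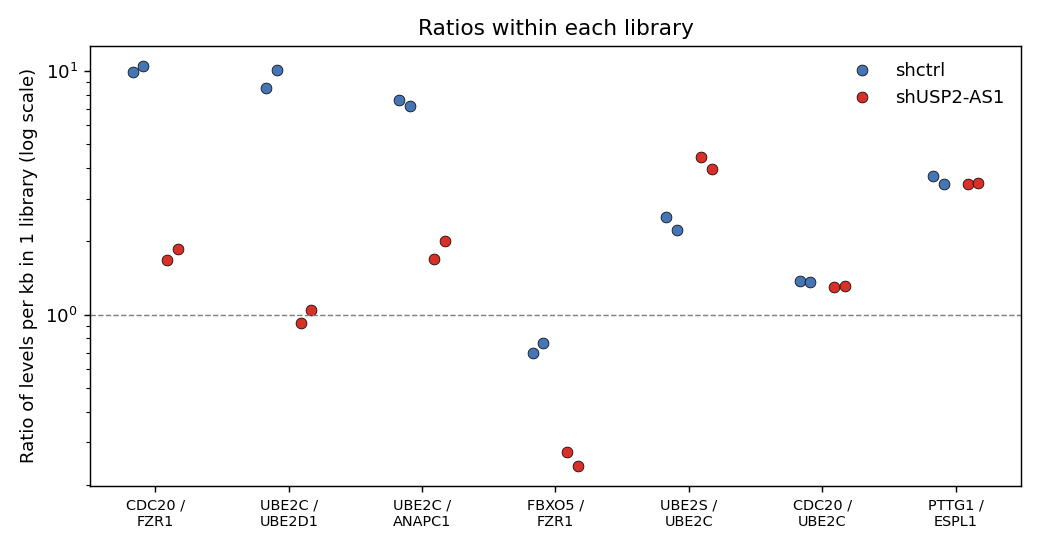
Ratio of levels per kilobase between pairs of genes in each library (log scale), with shctrl in blue, shUSP2-AS1 in red and a dashed line at equal levels. CDC20 over FZR1 goes from 9.88 and 10.5 to 1.68 and 1.87, whereas PTTG1 over ESPL1 overlaps between the groups.

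The inhibitor fell as well. FBXO5 (chr6:152970519-152983579, − strand), the interphase inhibitor of the complex, stood at 367.2 and 380.2 in shctrl and 109.4 and 97.7 in shUSP2-AS1. Its log2 fold change was -1.84 (SE 0.13, limma adjusted p = 5.11e-10), with 27.7% left. Against FZR1, FBXO5 stood at 0.697 and 0.769 per kilobase in shctrl and 0.275 and 0.240 in shUSP2-AS1, so less inhibitor transcript remained per transcript of the G1 coactivator. Of 8 inhibitor and checkpoint genes, FBXO5 included, 7 were tested and 5 were called lower, beside 13.5% of all tested genes. The median log2 fold change of the 7 was -1.96. BUB1B, the checkpoint kinase-like protein BUBR1 that binds CDC20, stood at 870.6 and 937.4 in shctrl and 125.1 and 164.6 in shUSP2-AS1 (log2 fold change -2.65, limma adjusted p = 1.49e-12). MAD2L1, the checkpoint protein MAD2, stood at 803.0 and 761.6 in shctrl and 154.6 and 183.1 in shUSP2-AS1 (-2.21, limma adjusted p = 3.4e-12). FBXO43 (EMI2), the meiotic relative of FBXO5, had a log2 fold change of -2.15 on 18 to 85 reads per library, and TRIP13, the ATPase that takes MAD2 out of its complex, one of -1.96. TRIP13 was named after its values were seen, to complete the count. Per kilobase, MAD2L1 stood at 0.108 and 0.102 of CDC20 in shctrl and at 0.162 and 0.168 in shUSP2-AS1, and BUB1B at 0.144 and 0.156 against 0.162 and 0.187. Relative to CDC20, MAD2L1 stood higher in the shUSP2-AS1 libraries, with a log2 change of 0.65 in the ratio (SD 0.05 in shctrl and 0.04 in shUSP2-AS1). The shift of BUB1B was less clear, with a log2 change of 0.21 and SDs of 0.08 and 0.15. BUB3 and MAD2L2 had log2 fold changes of -0.81 and -0.77 and were not called.

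Securin and separase fell by nearly the same factor. PTTG1 (chr5:160421855-160428739, + strand), the securin that is both substrate of the complex and inhibitor of separase, stood at 992.4 and 915.4 in shctrl and 194.5 and 206.9 in shUSP2-AS1. Its log2 fold change was -2.24 (SE 0.09, limma adjusted p = 5.07e-13), with 21.0% left. ESPL1 (chr12:53268299-53293638, + strand), separase, stood at 1206 and 1198 in shctrl and 253.4 and 266.8 in shUSP2-AS1. Its log2 fold change was -2.20 (SE 0.08, limma adjusted p = 1.38e-13), with 21.6% left. The ratio of securin to separase per kilobase was 3.70 and 3.44 in shctrl, against 3.45 and 3.49 in shUSP2-AS1. These ranges overlap, and the log2 difference of the mean ratios was -0.04, less than the SD of 0.08 between the shctrl libraries.

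The 3 core subunits had log2 fold changes nearer to 0 than 6 of the 7 other members. ANAPC1 (chr2:111611639-111884690, − strand), the largest scaffold subunit, stood at 1811 and 1918 in shctrl and 1095 and 1050 in shUSP2-AS1, with 57.5% left. CDC27 (chr17:47117703-47189422, − strand), the APC3 subunit that receives the tail of the coactivator, stood at 2508 and 2529 in shctrl and 1688 and 1572 in shUSP2-AS1, with 64.7% left. ANAPC7 (chr12:110372900-110403730, − strand), a neighbouring repeat subunit, stood at 1195 and 1074 in shctrl and 723.5 and 752.8 in shUSP2-AS1, with 65.1% left. In each case the libraries of the groups did not overlap and all shUSP2-AS1 values were the lower ones, with limma log2 fold changes of -0.80, -0.63 and -0.62 (SE 0.06, 0.06 and 0.07, adjusted p = 1.98e-09, 1.64e-08 and 4.67e-07) that were not called. ANAPC1 has 6 named pseudogenes in GENCODE, CDC27 3, UBE2C 5 and CDC20 1, none of them in the table, so shared reads of these genes could not be examined.

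Of 14 core subunits, 8 were tested, 1 was called lower and 0 were called higher, with a median log2 fold change of -0.58. All 8 were lower at a limma adjusted p below 0.05 and any fold, as were 49.4% of all tested genes. A count of 1 in 8 is near the 13.5% of all tested genes called lower, so it is no result about the core. The subunit called was ANAPC15, the small subunit needed to release checkpoint proteins from the complex, at 175.9 and 150.6 in shctrl and 59.9 and 64.3 in shUSP2-AS1 (log2 fold change -1.38, SE 0.18, limma adjusted p = 1.13e-06). ANAPC2, the cullin subunit of the catalytic part, stood at 1451 and 1462 in shctrl and 986.4 and 1012 in shUSP2-AS1 (log2 fold change -0.54). The scaffold subunits ANAPC4, ANAPC5 and CDC23 had log2 fold changes of -0.51, -0.38 and -0.29 and were not called. ANAPC10, ANAPC11, ANAPC13, ANAPC16, CDC16 and CDC26 are not among the listed genes and were not analysed here, which leaves their direction and size unknown. Since listing required passing the authors' test, the median of the 8 covers only subunits selected for a difference between the groups. It need not hold for all 14.

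**Figure D3:**
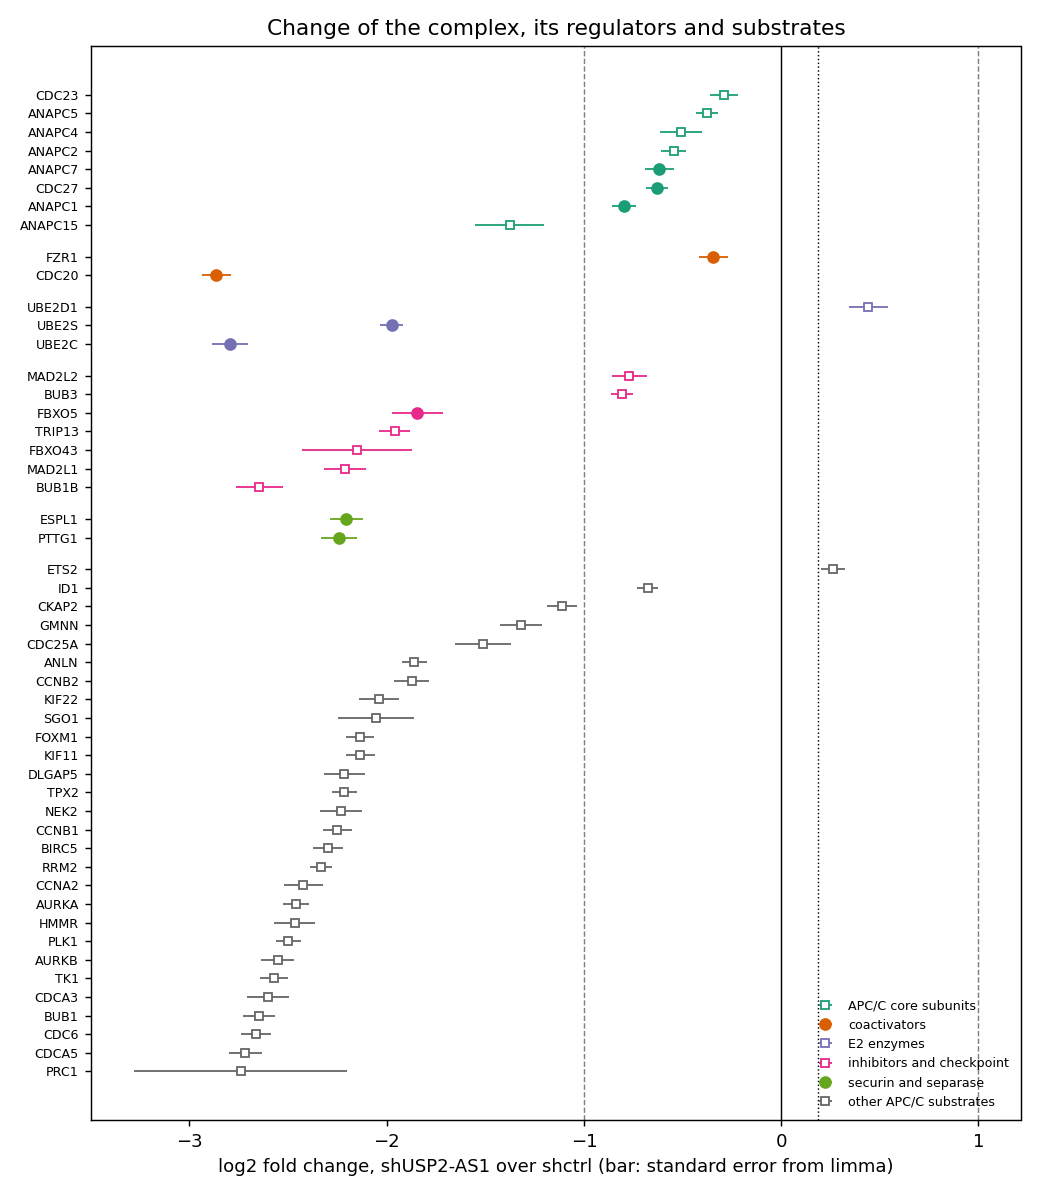
Limma log2 fold change (shUSP2-AS1 over shctrl) of the 50 tested genes of the complex, its regulators, its substrates and separase. Bars are 1 SE, with filled circles for the 10 members and open squares for the other genes. Dashed lines mark the 2-fold threshold and the dotted line the median of all tested genes, 0.19, and 7 of 8 core subunits lie above the lower threshold while most substrates lie below -2.

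A further list held 33 substrates of the complex other than securin, of which 28 were tested. Of these 28 substrates, 26 were called lower, beside 13.5% of all tested genes, and 0 were called higher, beside 16.1%. Their median log2 fold change was -2.24, against 0.19 over all tested genes. The largest changes were those of PRC1 (-2.74, SE 0.54, on 2 to 41 reads per library), a microtubule bundler of the central spindle, CDCA5 (-2.72, SE 0.08), sororin that guards cohesin, and CDC6 (-2.66, SE 0.08), a licensing factor of replication. PRC1 was therefore the least precise of them. The smallest were those of ETS2 and ID1, both transcription regulators, at 0.26 and -0.68, and neither was called. KIFC1, NUSAP1, SKP2, ID2 and SKIL were not among the listed genes. Over the 6 lists of the pathway, 50 of 62 genes were tested. Of the 50, 37 were called lower (13.5% of all tested genes were), 0 were called higher (16.1% of all tested genes were) and 13 were not called. All 5 proliferation markers (MKI67, PCNA, TOP2A, MCM2 and MCM6) fell too, with log2 fold changes of -2.55 to -1.01, a median of -2.39 and summed normalized counts of 26830 and 27844 in shctrl against 6778 and 6989 in shUSP2-AS1. None of the 5 was at 0, and their part in the changes of the APC/C genes was not tested.

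The order of levels per kilobase of the deposited gene length differed between the groups. The place of a gene in either order depends on that length, which need not be that of the transcript made. In shctrl, levels per kilobase of gene length ran from UBE2S (2334) through CDC20 (1349), UBE2C (983.6), PTTG1 (483.0), CDC27 (369) and ANAPC7 (189) to ESPL1 (135), ANAPC1 (133), FZR1 (132.5) and FBXO5 (96.9). The library ranges of ESPL1, ANAPC1 and FZR1 overlapped, so their order is not resolved. In shUSP2-AS1, UBE2S (592.5) was again highest, followed by CDC27 (239), CDC20 (185), UBE2C (141.5), ANAPC7 (123), FZR1 (104) and PTTG1 (102), whose ranges overlapped, then ANAPC1 (76.7), ESPL1 (29.3) and FBXO5 (26.9). CDC27, a core subunit, thus passed CDC20: the level of CDC20 was 3.67 and 3.64 times that of CDC27 in shctrl and 0.700 and 0.857 times in shUSP2-AS1. FZR1 stood at 0.372 and 0.346 of CDC27 in shctrl and 0.417 and 0.458 in shUSP2-AS1, a log2 change of 0.29 in the ratio. Summed over genes, the 3 core subunits had normalized counts of 5514 and 5520 in shctrl and 3506 and 3375 in shUSP2-AS1, and the other 7 members 14382 and 13427 against 3400 and 3514.

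**Figure D4:**
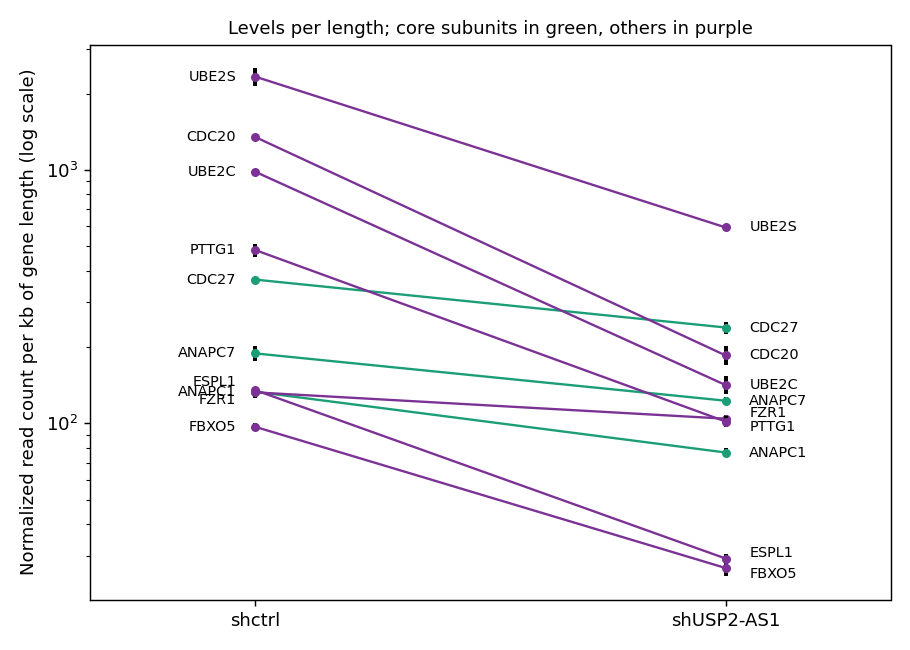
Mean normalized read count per kilobase of gene length (log scale) of the 10 members in shctrl and shUSP2-AS1, with bars from the lower to the higher library, core subunits in green and the other members in purple. The green lines are shallow and most purple lines steep, so CDC27 stands above CDC20 in shUSP2-AS1.

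The genes whose profile was most like that of CDC20 were CDT1, PRR11 and DTL. Likeness was the Euclidean distance of mean-centred log2(value + 1) over the 4 libraries among 6034 genes with a mean of at least 100, outside the lists above. The distances were 0.054, 0.104 and 0.131 and the log2 fold changes -2.89, -2.79 and -2.75. With 4 libraries in 2 groups, this measure mostly ranks genes by the size of their change.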

How the data were processed

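RNA-seq of A549 cells infected with shctrl or shUSP2-AS1 lentivirus (2 libraries each) was taken from 1 deposited table. Per the submitters' processing notes, the tools were HISAT2 2.0.5, featureCounts 1.5.0-p3 and DESeq2 1.20.0, with build hg38. The authors deposited a normalized signal for each gene and library, that is, reads divided by the size factor of the library. They also deposited the group means, log2 fold changes, p-values and adjusted p-values of their comparison, which were not used beyond noting that all 6828 adjusted p-values were below 0.05, and gene lengths, which served for levels per kilobase. Columns were assigned to groups and replicates by their names. The columns named scr were read as shctrl and those named sh216 as shUSP2-AS1, an inference, since the sample titles do not use these names. Whole reads were recovered from 100% of values in each library (tolerance 0.02).

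Limma (version 3.58.1, R 4.3.3) was fitted with a trend to log2(value + 1), the scale of all fold changes. Genes with a mean under 10 were left out, and 6812 were tested. Called genes passed an adjusted p of 0.05 and changed at least 2-fold. Members and lists were chosen with earlier results of these data known. Named are all members, the listed core subunits, the 3 largest and 2 smallest changes of each other list, and the 3 genes most like CDC20. Alternatives were TMM and RLE scaling, a pseudocount of 0.1, no filter, a replicate block, edgeR (version 4.0.16) and DESeq2 (version 1.42.0) on recovered reads, no fold threshold and each library left out. Replicates differed beyond sampling noise (chi-square per degree of freedom 3.75 and 3.84) and were kept apart. Same-numbered libraries of the groups did not deviate together (correlation of replicate differences -0.04). The fit was also run on simulated reads in which most genes were unchanged. The listed genes differ from that setting, so the run does not measure the error of the calls here. Protein motifs were not searched here.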

Additional observations from a re-analysis of the deposited data

How the results depend on the processing

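The calls of the 10 members did not depend on the 11 refitted alternatives. All 110 member values kept their direction and their side of the threshold, and 6 members, 1 core subunit, 26 other substrates and 5 inhibitor and checkpoint genes were called lower in each. FZR1, the smallest change, ranged from -0.30 to -0.46. With no fold change threshold, 10 members, 8 core subunits and 3362 genes were lower and 3449 genes were higher. With a library left out in turn, where the lone library is assumed to vary like the other group, 882 to 955 genes were called lower and 1083 to 1101 higher, and CDC20 ranged from -2.96 to -2.77. A replicate block gave 922 lower and 1098 higher calls, as many as no block. In this balanced design a block leaves every fold change as it is, so only the adjusted p could alter a call. The equal counts are therefore little of a check. The shared replicate numbers were not backed by a pairing in the data. RLE scaling moved the median of all genes by -0.12 and gave 1137 lower and 935 higher calls, 54.9% of calls lower against 45.6%, and DESeq2 gave 1140 and 942. TMM scaling gave 940 and 1083, and edgeR 940 and 1085. The limit is that the table holds only genes selected on the same contrast, from 1 hairpin and 2 libraries a group. A gene on few reads, such as USP2-AS1 or PRC1, is measured with less precision than the members, with 104 reads or more per library.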
